A study of Rattus norvegicus with 20 samples.

Results

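Ubiquitin-specific proteases (USPs) form the largest family of enzymes that take ubiquitin off other proteins. Their transcripts are described here in a ventral striatal reward region, the nucleus accumbens shell, of alcohol-preferring (P) rats. The members are the genes whose platform symbol is Usp followed by a digit, without Usp18, with 1 probe set a gene, the one whose mean over the 20 arrays was highest. This gave 42 of the 14217 genes with a probe set that names them alone, and 40 of the 42 lay above the filter on dim probe sets (a mean log2 value of 6.65). The family was selected on the ethanol minus water difference of Usp27x, which was already known, so the values of that comparison are a description of the members and no test of them.

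The ethanol group held 10 P rats that had access to ethanol solutions of 15 and 30% in adolescence, and the water group held 10 P rats with water alone. The P line was bred for high voluntary ethanol drinking, and every animal of both groups belongs to it, so no comparison with an unselected rat is made here. Each animal gave 1 array, and the values are log2 intensities after RMA, a method that removes background signal, brings arrays to a shared scale and gives 1 value for the probes of a set. The comparison asks how gene expression in this region differs after drinking in adolescence.

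Ubiquitin is a small protein that a chain of activating (E1), conjugating (E2) and ligating (E3) enzymes attaches to other proteins, which sends them to the proteasome or changes their place or activity. USPs are cysteine proteases that reverse this step. In the brain they trim ubiquitin at synapses, on endosomes, on mitochondria and on histones, and mice that lack functional Usp14 have defects of synaptic transmission. Usp27x is a close relative of Usp22 and Usp51, and in human cells all of these pair with the adaptor proteins ATXN7L3 and ENY2 to remove ubiquitin from histone H2B. Usp22 and Usp51 were not analysed here.

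Medium spiny neurons send the output of the striatum, and all 25 measured markers of them lay above the filter. The 9 measured astrocyte and 10 measured microglia markers did so as well, so lying above the filter does not tell the shell from other tissue. The mean of the medium spiny neuron list ran from 12.04 to 12.59 in ethanol animals and from 11.33 to 12.61 in water animals. Water animals 17, 19 and 20 had the 3 lowest means of all 20 animals (11.59, 11.81 and 11.33), and the arrays of water animals 12, 17 and 20 correlated less with the other arrays than the rest did. The oligodendrocyte list ran from 10.57 to 11.40 in ethanol and from 10.52 to 11.41 in water, the astrocyte list from 12.08 to 12.35 in ethanol and from 12.09 to 12.43 in water, and the microglia list from 9.19 to 9.44 in ethanol and from 9.19 to 9.68 in water. Of the 25, 18, 9 and 10 tested genes in these lists 0 passed, where passing means a limma p-value, adjusted over all probe sets, under 0.05. The lists leaned to 1 side all the same. Of the medium spiny neuron markers 24 of 25 were positive (ethanol minus water, median 0.24), and of the oligodendrocyte list 18 of 18 were negative (median -0.15). Of the microglia markers 9 of 10 were negative (median -0.10), and of the astrocyte markers 6 of 9 were negative (median -0.03). These medians were -0.03, -0.0091, -0.04 and -0.0096 without water animals 17, 19 and 20. In the oligodendrocyte list the marker Trf was matched by a synonym to Trh (-0.11), a neuropeptide gene and no oligodendrocyte marker. The range, count and medians of that list include Trh. The gap between probe sets at the 3' and the 5' end of the same control transcripts, which widens as RNA degrades, averaged 1.16 ± 0.11 in ethanol and 1.29 ± 0.15 in water (SD, n = 10 each). Member differences that moved by over 0.05 without water animals 17, 19 and 20 are therefore given both ways, and the part of cell makeup or RNA quality in them was not tested. In bulk tissue, fewer cells of a type and less RNA per cell cannot be told apart.

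Usp27x was lower in every ethanol animal than in any water animal. Its lowest, median and highest log2 values were 9.13, 9.42 and 9.503 in ethanol, against 9.504, 9.63 and 9.77 in water. The groups did not overlap, but ethanol animal 8 and water animal 21 nearly met. Means were 9.37 ± 0.12 in ethanol and 9.62 ± 0.080 in water (SD, n = 10 each), a difference of -0.25 ± 0.047 (SE), or 1.19-fold lower in ethanol. This was the 1 call among the 40 members (limma, adjusted p = 0.0374 over all probe sets), and it is the value that led to the choice of the family. Of the 10746 genes tested, 0.0931% passed in either direction, 0.0838% as higher and 0.00931% as lower in ethanol, the last being Usp27x itself. Groups without overlap were found for 0.0651% of genes in either direction, and for 0.00931% with ethanol lower, again Usp27x alone.

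The size of the Usp27x difference varied little with the choice of arrays, while the call did vary. Leaving out each animal in turn gave differences between -0.26 and -0.22, and the adjusted p ran from 0.0284 to 0.0881. It stayed under 0.05 in 5 of these 20 fits, those without ethanol animals 7, 8 or 10 or water animals 17 or 21, and was above 0.05 when any other single animal was left out. Without water animals 17, 19 and 20 the difference was -0.26 (adjusted p = 0.0453), and without water animals 12, 17 and 20 it was -0.26 (adjusted p = 0.07). With the 3' minus 5' gap as a covariate the difference was -0.24 and did not pass (adjusted p = 0.261). Usp27x was measured by 1 probe set, so no other probe set of the gene was there to compare.

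The order of deposit holds 3 runs of alternating groups, which no label calls batches. The Usp27x difference was -0.30 in the first (4 animals against 4), -0.26 in the second (4 against 4) and -0.12 in the third (2 against 2). Since the groups do not overlap, the sign within each run was given beforehand, and these values describe the size alone. With the run as a term the difference was -0.25 and the adjusted p was 0.0607.

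**Figure D1:**
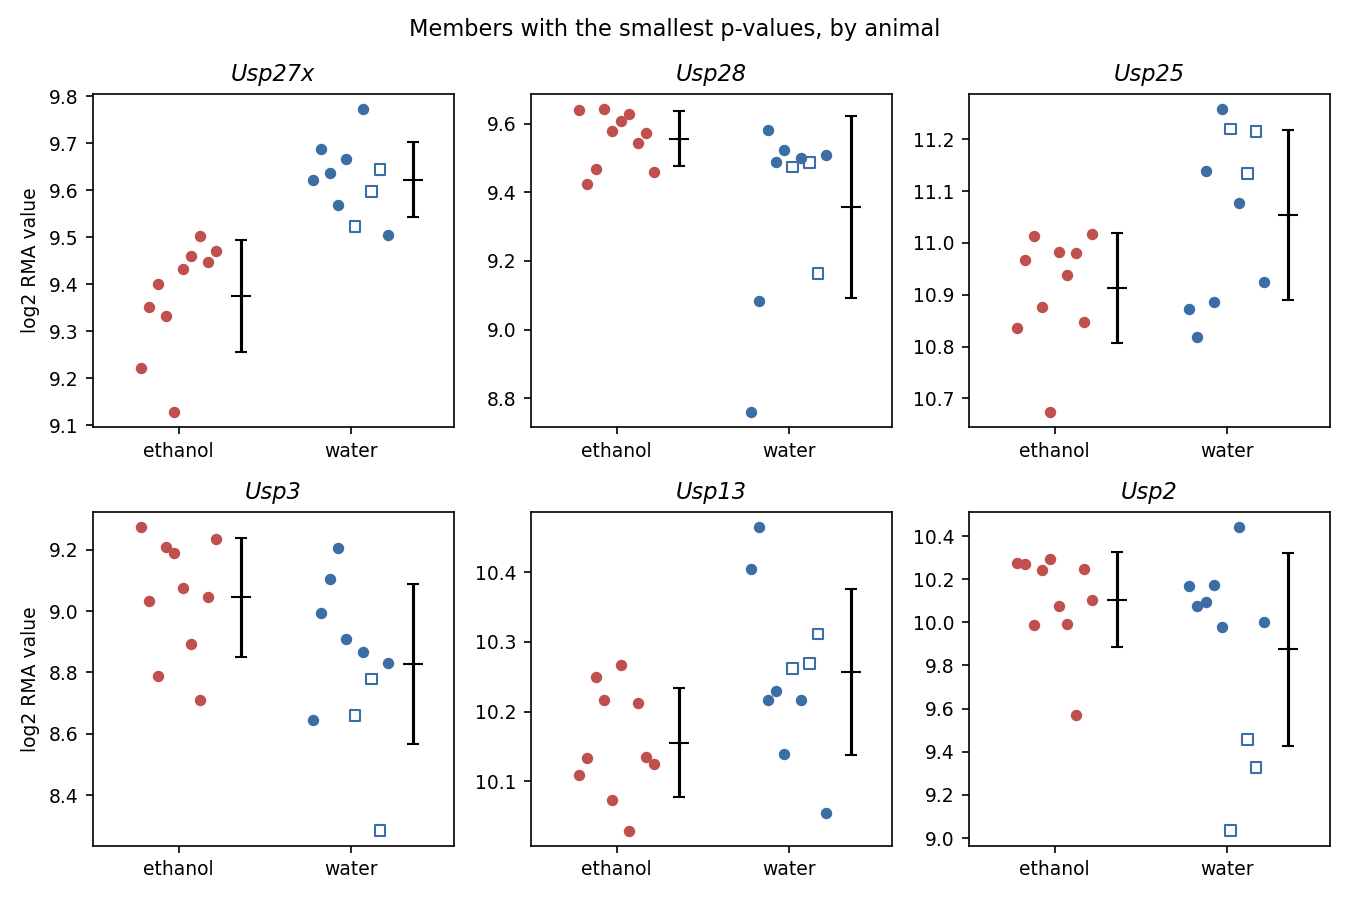
Log2 RMA value of each animal for Usp27x and the 5 members next by p-value, ethanol left and water right. Filled circles are single animals, open squares are water animals 17, 19 and 20, and black bars give the mean and SD over 10 animals. The groups are separate for Usp27x alone, and the low water values of Usp2 and Usp28 belong to a few animals.

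Genes listed with the module of the SAGA chromatin complex that removes ubiquitin from histones held no call. Of 5 listed genes 0 passed, with a median difference of 0.0089 against 0.00016 over all genes tested. The adaptor Atxn7l3 itself was not analysed here. Eny2, the other adaptor of Usp27x, differed by 0.02 (95% interval -0.06 to 0.11). Atxn7, Atxn7l1 and Atxn7l2, listed for SAGA and not as adaptors of Usp27x, differed by 0.02, 0.0089 and 0.0045. Atxn7l2 lay near the filter, at 6.75 in ethanol and 6.75 in water. Atxn7l3b, a relative of the adaptor Atxn7l3, differed by -0.04 (interval -0.13 to 0.05). The median of these listed genes was -0.03, with 0 of 5 positive, without water animals 17, 19 and 20. Substrates reported for USP27X in human or mouse cells include the transcription factors Snai1 and Hes1. Snai1 differed by 0.03 (interval -0.11 to 0.16) and Hes1 by -0.07 (interval -0.26 to 0.12), and neither passed. Bcl2l11, a pro-death protein also reported as a substrate, lay below the filter.

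The rest of the family held no called difference. Of the 39 other members above the filter 0 passed, and the lowest adjusted p among them was 0.370. Differences ran from -0.15 to 0.23, with 21 positive and 18 negative. Over all 40 members the median difference was 0.0040 and the median size of a difference was 0.025, against 0.00016 and 0.051 over all 10746 genes. A difference under 0.1 in size was found for 32 of 40 members (80%), against 76.6% of all genes. The 95% intervals reached 0.065 to 0.30 to either side of the difference, with a median of 0.098. Usp25, Usp28 and Usp3 had intervals that excluded 0 and did not pass after adjustment over all probe sets. Their SEs were 0.061, 0.083 and 0.097, against 0.047 for Usp27x, so differences of their size can go uncalled in members that vary as much. The interval excluded 0 for 5 of 40 members (12.5%), 2 higher and 3 lower in ethanol, where 10% of all genes had such an interval (5.24% higher and 4.77% lower). That share is near the background and is no result about the family.

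**Figure D2:**
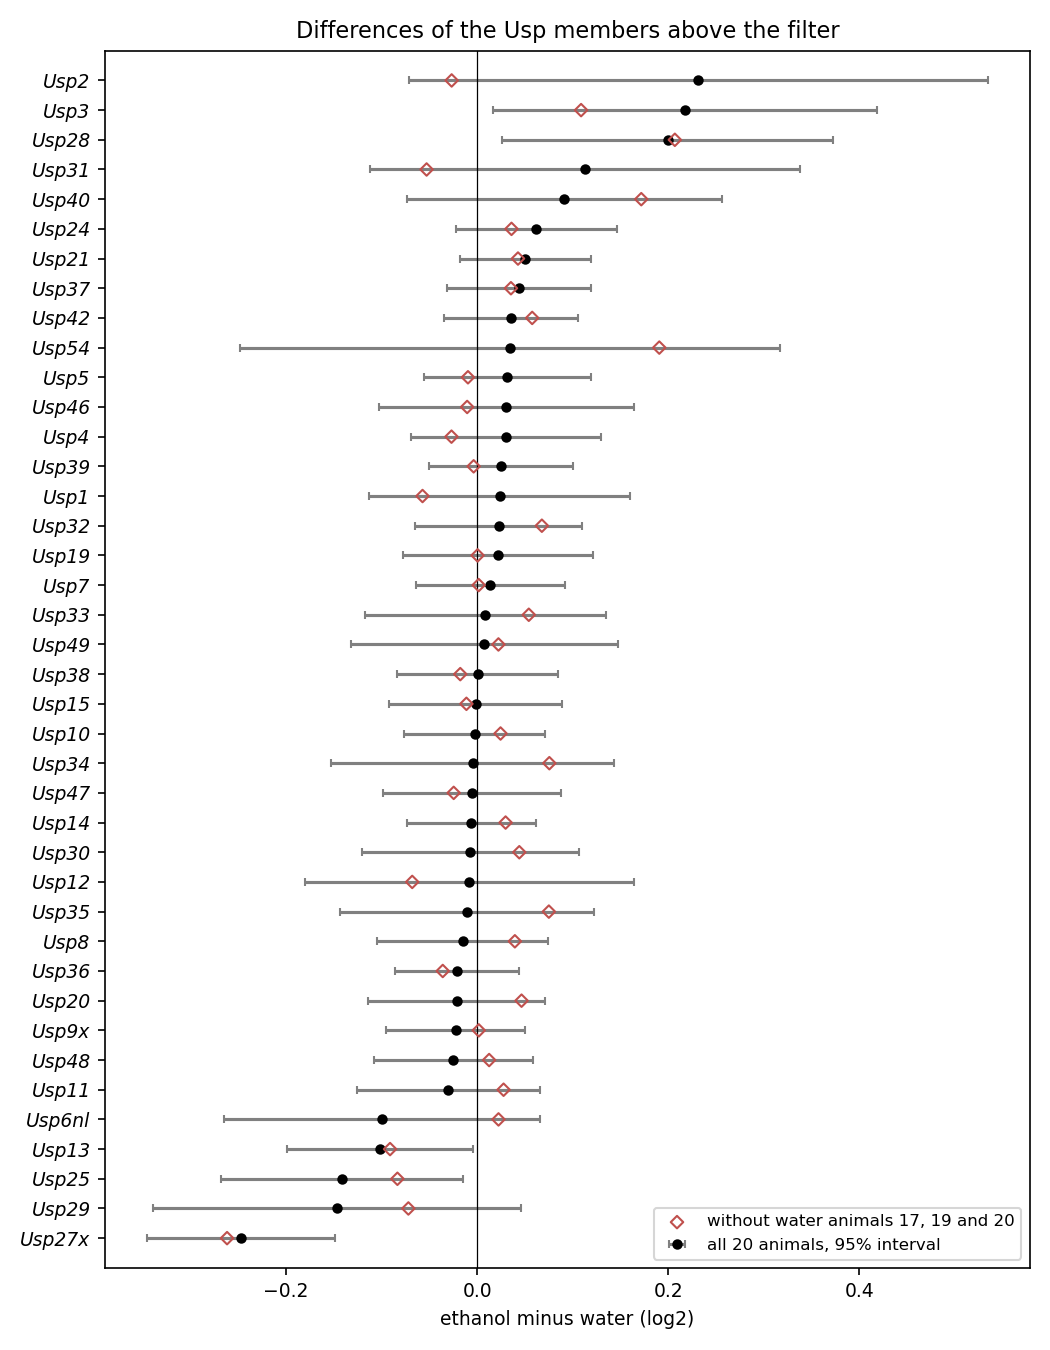
Ethanol minus water on the log2 scale for the 40 members above the filter, in order of size. Black points and grey bars are the difference and its 95% interval from all 20 animals, and open diamonds are the difference without water animals 17, 19 and 20. Usp27x lies at -0.25 and moves to -0.26, while Usp2 moves from 0.23 to -0.03.

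Usp25 and Usp28, paralogs that act on different proteins, differed in opposite directions. Usp28, which stabilises the transcription factor Myc in human cells, had lowest, median and highest values of 9.42, 9.58 and 9.64 in ethanol, against 8.76, 9.49 and 9.58 in water. All 10 ethanol animals lay above the water mean, and water animals 12, 13 and 20 were far below the other water animals. The difference was 0.20 (interval 0.03 to 0.37, adjusted p = 0.370), and 0.10 without water animals 12, 17 and 20. Usp25, known for trimming ubiquitin in innate immune signalling, averaged 10.91 ± 0.11 in ethanol and 11.05 ± 0.16 in water, a difference of -0.14 (interval -0.27 to -0.015, adjusted p = 0.381). All 10 ethanol animals lay below the water mean, but 4 water animals (12, 13, 15 and 21) lay among them. Without water animals 17, 19 and 20 the Usp25 difference was -0.08.

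Beside Usp27x, 4 USPs listed as acting on histones lay above the filter. Usp3, which removes ubiquitin from histones H2A and H2B, had values of 8.71, 9.06 and 9.27 (lowest, median, highest) in ethanol and 8.29, 8.85 and 9.21 in water. The groups overlapped widely, and water animal 20 was the lowest of all. The difference was 0.22 (interval 0.02 to 0.42, adjusted p = 0.393), 0.16 without water animal 20 and 0.11 without water animals 17, 19 and 20. The other 3 differed by at most 0.04 in size. Usp36, a nucleolar enzyme, differed by -0.02, Usp42 by 0.04 and Usp49, an H2B enzyme in human cells, by 0.0075. Usp49 also had the lowest level of the members above the filter, at 7.50 in ethanol and 7.50 in water. Usp44 and Usp43 lay below the filter, at 5.77 and 5.10 in ethanol and 5.69 and 4.97 in water, and were not tested.

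Enzymes that recycle ubiquitin showed 1 interval that excluded 0. Usp13, a close relative of Usp5, had values of 10.03, 10.14 and 10.27 in ethanol and 10.05, 10.25 and 10.46 in water. The groups overlapped, with water animals 12 and 13 highest. The difference was -0.10 (interval -0.20 to -0.0041, adjusted p = 0.402). With the 3' minus 5' gap as a covariate the Usp13 difference was -0.046 (limma, adjusted p = 0.828). In that fit Usp25, Usp28 and Usp3 differed by -0.16, 0.15 and 0.21. Usp5, which takes apart free ubiquitin chains, differed by 0.03 (interval -0.06 to 0.12). Usp14, which is bound to the proteasome and rescues ubiquitin before degradation, averaged 13.05 ± 0.034 in ethanol and 13.05 ± 0.073 in water, a difference of -0.0060 (interval -0.07 to 0.06).

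The enzymes activated by the Wdr48 protein differed by at most 0.03 in size, and Wdr48 itself did not pass. Usp46, whose mutation alters behaviour and GABA signalling in mice, averaged 10.81 ± 0.11 in ethanol and 10.78 ± 0.17 in water, a difference of 0.03 (interval -0.10 to 0.16). Usp1, a DNA repair enzyme, differed by 0.02 (interval -0.11 to 0.16) and Usp12 by -0.0082 (interval -0.18 to 0.16), and without water animals 17, 19 and 20 these were -0.06 and -0.07. Wdr48 averaged 9.30 ± 0.10 in ethanol and 9.42 ± 0.084 in water, and its difference of -0.12 (interval -0.21 to -0.02) did not pass (adjusted p = 0.336). It was -0.12 also without water animals 17, 19 and 20, and -0.06 with the 3' minus 5' gap as a covariate (adjusted p = 0.779).

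USPs that act on receptors, endosomes and membranes differed by small amounts. Usp8, which sorts receptors at endosomes, differed by -0.015 (interval -0.10 to 0.07), Usp10, a partner of the stress granule protein G3bp1, by -0.0026, and the beta-adrenergic receptor enzymes Usp20 and Usp33 by -0.02 and 0.0086. Usp30, which opposes removal of mitochondria from their outer membrane, differed by -0.0070 (interval -0.12 to 0.11), and Usp19, of which a form is anchored in the endoplasmic reticulum, by 0.02. Within this set 2 members were positive and 4 negative. Usp8, Usp20 and Usp30 differed by 0.04, 0.05 and 0.04 without water animals 17, 19 and 20.

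Large and general USPs differed by at most 0.06 in size. Usp7, which stabilises Mdm2 and with it controls the tumour suppressor p53, averaged 11.57 ± 0.051 in ethanol and 11.56 ± 0.091 in water (difference 0.014, interval -0.06 to 0.09), and its paralog Usp47 differed by -0.0053. Usp9x, needed for neuronal development, differed by -0.02 (interval -0.10 to 0.05). Usp24 and Usp34 differed by 0.06 and -0.0047. The paralogs Usp4, Usp11 and Usp15 differed by 0.03, -0.03 and -0.0013. Leaving out water animals 17, 19 and 20 gave 0.08 for Usp34, -0.03 for Usp4 and 0.03 for Usp11.

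Members listed as without protease function had no called difference. Usp39, a splicing factor that lacks the catalytic residues, differed by 0.02 (interval -0.05 to 0.10), and Usp54, long classed as inactive, by 0.03 (interval -0.25 to 0.32), and by 0.19 without water animals 17, 19 and 20. Usp54 ranged widely in both groups, from 10.36 to 11.31 in ethanol and from 10.21 to 11.25 in water. Usp6nl matches the naming rule but is a Rab GTPase-activating protein and no protease. It differed by -0.10 (interval -0.27 to 0.07), and by 0.02 without water animals 17, 19 and 20.

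Outside these groups, Usp2 and Usp29 had the largest differences. Usp2, which cycles with the circadian clock, had values of 9.57, 10.17 and 10.29 in ethanol and 9.04, 10.04 and 10.44 in water. Its low water values belonged to animals 17, 19 and 20, and its low ethanol value to animal 8, which also had the lowest medium spiny neuron mean of the ethanol group. The difference was 0.23 (interval -0.07 to 0.53) with all animals and -0.03 without these water animals. With the medium spiny neuron mean as a covariate it was -0.0025. That covariate also moved other members, such as Usp6nl from -0.10 to -0.0014 and Usp3 from 0.22 to 0.09. Usp28 moved little, from 0.20 to 0.18. Usp29, an imprinted gene expressed from the paternal copy in mouse brain, had values of 10.84, 10.99 and 11.18 in ethanol and 10.75, 11.13 and 11.64 in water, with water animals 12 and 17 far above the rest. Its difference was -0.15 (interval -0.34 to 0.05) with all animals, -0.07 without water animals 17, 19 and 20 and -0.0019 without water animals 12, 17 and 20. The remaining 8 members had smaller differences. Usp31 differed by 0.11 (-0.05 without water animals 17, 19 and 20) and Usp40 by 0.09 (0.17 without them). Usp21, Usp37 and Usp32 differed by 0.05, 0.04 and 0.02, Usp38 by 0.00047, Usp35 by -0.011 (0.08 without water animals 17, 19 and 20) and Usp48 by -0.02.

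The members varied more between water than between ethanol animals, as most genes did. The SD was higher in water for 35 of 40 members (87.5%), against 81.2% of all genes, with median SDs of 0.075 in ethanol and 0.12 in water. The value farthest from a member's mean came from a water animal for 34 of 40 members (85%), and from water animal 12, 17 or 20 for 25 (62.5%), against 79.2% and 58.9% of all genes. Without water animals 17, 19 and 20 the SD was still higher in water for 29 members (72.5%, against 62.2% of all genes). The same omission changed the sign of the difference for 19 of 40 members (47.5%), against 28% of all genes, by a median shift of 0.041 for members and 0.037 for all genes. Most member differences lay near 0, and the part of this in the sign changes was not tested.

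**Figure D3:**
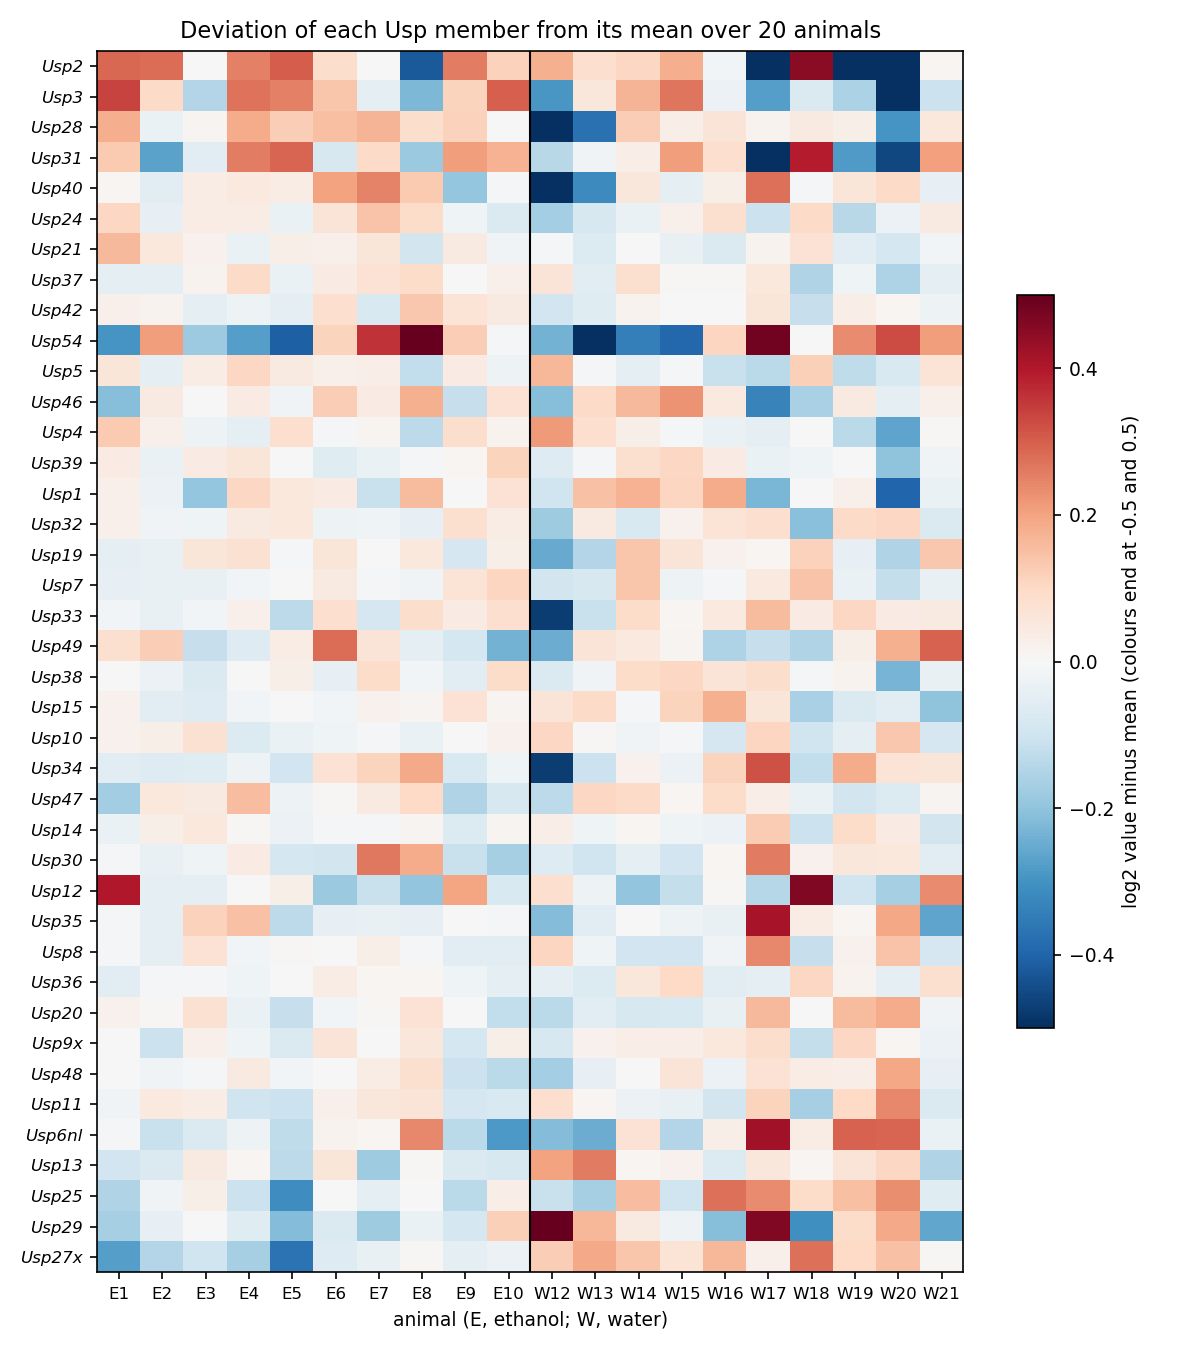
Each member's log2 value minus its own mean over 20 animals, members down the page in the order of their difference and animals across it (E, ethanol; W, water). Red is above and blue below the mean, with colours ending at 0.5 to either side. Strong colours gather in water animals 12, 17 and 20, while Usp27x, in the lowest row, is blue or pale in ethanol and red or pale in water.

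Probe sets of the same member often disagreed in direction. Of 82 Usp probe sets 71 lay above the filter, and 20 members had 2 or more of them. The 31 probe sets that did not represent a member differed by -0.12 to 0.16, 22 of them positive, and 0 passed (lowest adjusted p = 0.392), where 0.0966% of all probe sets passed. Signs differed within 14 of the 20 members (70%), against 43.9% of all genes with 2 or more probe sets. They differed within 7 of the 11 members with 2 probe sets (63.6%), where 38.6% of all genes with 2 probe sets differed in sign. Some of these values lay near 0, as for Usp38 (0.00047 and -0.0013) and Usp30 (-0.0070 and 0.015). Member differences were also smaller than those of all genes (median size 0.025 against 0.051), and the part of this in the sign counts was not tested.

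Usp13, whose interval excluded 0, had probe sets of both signs. Its further probe sets differed by 0.05 (interval -0.07 to 0.18) and 0.11 (interval -0.025 to 0.23), against -0.10 for the one with the highest mean, and the mean over its probe sets differed by 0.018. Usp46 had a probe set at 0.16 (interval 0.010 to 0.32, adjusted p = 0.398) and Usp4 one at 0.13 (interval 0.010 to 0.26, adjusted p = 0.392), each above the difference of the probe set that represents the gene. Usp2 and Usp6nl kept their signs, with a further Usp2 probe set at 0.15 and further Usp6nl probe sets at -0.07 and -0.12. The further probe sets had the higher difference in 13 of 20 members (65%), by a median of 0.035, against 62.6% and 0.027 over 3005 genes with 2 or more probe sets. With the 3' minus 5' gap as a covariate these were 75% and 0.034 for the members and 52.1% and 0.0035 for all such genes.

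**Figure D4:**
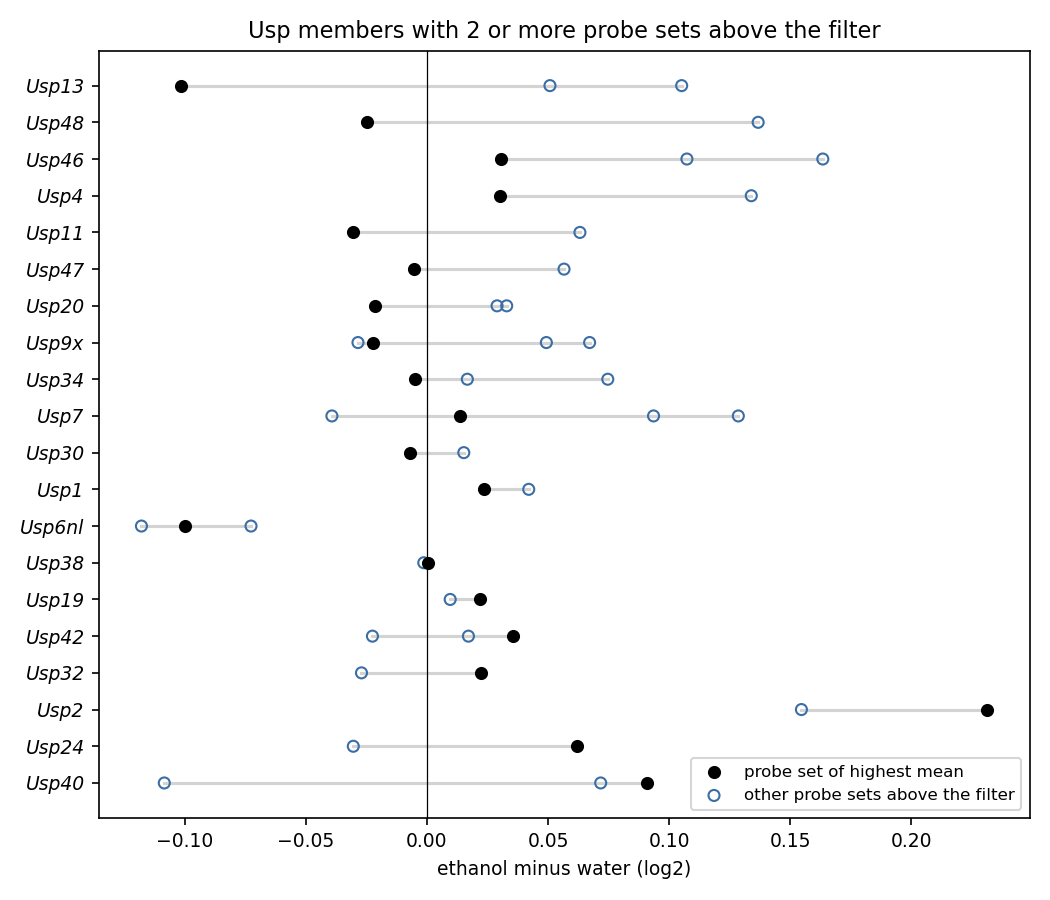
Ethanol minus water (log2) for every probe set above the filter of the 20 members with 2 or more, 1 row a member. Black points are the probe sets of highest mean, which represent the members, and open circles are the others. For Usp13 the black point lies at -0.10 and the circles at 0.05 and 0.11.

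Other genes of ubiquitin attachment and removal held no called member either. Among proteins that bind and regulate USPs 0 of 8 passed (median difference -0.047), with G3bp1 at -0.08 and the endosomal sorting protein Hgs at -0.07 (-0.03 and -0.02 without water animals 17, 19 and 20). Among deubiquitinases of other families 0 of 30 passed, 16 positive and 14 negative (median 0.0054). Cyld, a tumour suppressor that trims ubiquitin chains in NF-kappaB signalling, averaged 10.50 ± 0.11 in ethanol and 10.22 ± 0.28 in water, a difference of 0.28 (interval 0.09 to 0.47, adjusted p = 0.298) that was 0.14 without water animals 17, 19 and 20. Tnfaip3, a further inhibitor of that pathway, differed by 0.20, Atxn3, the protein expanded in a human ataxia, by 0.13 and Otud1 by -0.17, with adjusted p-values between 0.379 and 0.395. Without the same water animals these differences were 0.05, 0.06 and -0.09.

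Among activating and conjugating enzymes 0 of 25 passed (median 0.0045), and the smallest p-values belonged to Ube2v2 (-0.08), Ube2g2 (-0.09), Ube2j1 (0.09) and Ube2e2 (0.10), the last being 0.03 without water animals 17, 19 and 20. Among HECT-type ligases, which pass ubiquitin on through a catalytic cysteine of their own, 0 of 22 passed (median 0.0046). Hecw1 differed by -0.13, Smurf2 by -0.11 and Hectd3 by 0.34, and without water animals 17, 19 and 20 these were -0.09, -0.14 and 0.10. Nedd4l, which removes sodium channels from membranes, averaged 10.68 ± 0.22 in ethanol and 10.37 ± 0.55 in water, a difference of 0.31 (interval -0.05 to 0.67) that was 0.0037 without water animals 17, 19 and 20. The interval excluded 0 for 6 of the 30 other deubiquitinases (20%), 1 of the 25 activating and conjugating enzymes (4%) and 3 of the 22 ligases (13.6%), beside the 10% of all genes.

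With the group means taken out, Pearson's r between Usp27x and the other members over the 20 animals ran from -0.29 for Usp49 to 0.40 for Usp25, with a median of 0.012 over 39 members and 0.020 over all genes. For Usp25 it was 0.82 over the ethanol animals, 0.07 over the water animals and 0.54 without water animals 17, 19 and 20. For Usp54 these were 0.79, -0.35 and 0.46. Spearman's correlation with Usp27x over the 20 animals was 0.28 for Usp25 and 0.25 for Usp54. Ethanol animal 5 had the lowest ethanol value of both Usp25 and Usp27x. Other members also had large r over the ethanol animals, in either direction, such as Usp33 (0.67) and Usp2 (-0.65). The genes most like Usp27x were Mex3d (r = 0.79), Eef2k (0.77), Kat6a (0.75), Rprd2 (0.75) and Dedd2 (0.69). The least like Usp27x were Sp100 (-0.74), Lmo2 (-0.74), Cyyr1 (-0.72), C15h8orf58 (-0.72) and Slc6a3 (-0.71). These were picked from 10745 correlations that share the same 20 arrays and are given as a description. Without water animals 17, 19 and 20 they were between 0.67 and 0.81 for the first 5 and between -0.77 and -0.72 for the others.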

How the data were processed

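RNA of 20 rats, 1 array each, was labelled from the 3' end with biotin, per the labels' protocols. The values the authors deposited are log2 values made with RMA, per the submitters' processing notes. For the software and chip definition, the sources used here give nothing. The log2 scale is also shown by their range (3.89 to 16.25) and by array medians of 7.93 to 7.98. RMA shrinks differences of dim probe sets.

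Of 31099 probe sets, 20826 name 1 gene in the platform table, and all Usp members matched RefSeq (GRCr8) by identifier. No coordinates are given, because the array values carry no build. Controls and the 33.3% of probe sets with the lowest mean (under 6.65) were left out, which left 20695. Ethanol was compared with water with limma 3.58.1 in R 4.3.3 (lmFit, eBayes, two-sided), p-values adjusted by Benjamini-Hochberg across the tested probe sets, and a threshold of 0.05. The fit was checked on simulated data. The number of arrays limits the precision. The 3' minus 5' gap is the mean over the beta-actin, GAPDH and hexokinase control probe sets.

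The members and gene lists were chosen with earlier results of these data known. The rule named Usp27x, the members of the role groups, up to 10 members in each direction by smallest p, the 5 of highest and of lowest level, members with disagreeing probe sets, up to 4 genes of smallest p in each list, and the 5 genes most and least like Usp27x, for which symbols starting with LOC or RGD were passed over, an exception to the rule. Alternatives changed the filter, normalization, variance model, weights, probe set choice, covariates, arrays and threshold.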

Additional observations from a re-analysis of the deposited data

Results flagged for a closer look

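In groups of 10 animals a value was marked where its gap to the nearest other value, as a share of the group's range, exceeded the critical value of Dixon's test. This held for 6 of 124 group tests, and chance alone marks about 1 in 20. Of these, 4 were in water animals 12, 17 or 20.

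Usp2 was 9.57 in ethanol animal 8, with the next lowest ethanol value at 9.99. Usp25 was 10.67 in ethanol animal 5, with the next at 10.84, and this was also the animal with the lowest Usp27x. In water, Usp33 was 12.09 in animal 12 (next 12.45), Usp30 was 10.54 in animal 17 (next 10.34) and Usp38 was 9.89 in animal 20 (next 10.05). Atxn7l3b, the relative of the Usp27x adaptor, was 13.01 in water animal 12 (next 12.75).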

How the results depend on the processing

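Groups that do not overlap fix the sign of the Usp27x difference when animals are left out, and several alternatives (the filters, the variance prior, the mean over probe sets, the run term) cannot move its size. At the threshold of 0.05 it did not pass with the 3' minus 5' gap as a covariate (-0.24, adjusted p = 0.261), with the run as a term (-0.25, adjusted p = 0.0607) or without water animals 12, 17 and 20 (-0.26, adjusted p = 0.07), and the count of called members was then 0. Leaving out 1 animal gave -0.26 to -0.22 and 0 to 1 called member. No other member passed in any alternative (limma, lowest adjusted p = 0.253). Of 1286 values of other members under the alternatives 1285 moved by under 1 SD between animals. The exception was Usp13 as the mean over its probe sets (0.018). Leaving out 1 animal, the filters, the variance prior and the run term can hardly move a difference that far. The count is therefore no measure of stability. Without water animals 17, 19 and 20, Usp2 went from 0.23 to -0.03, and 19 of 40 members changed sign.

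With all genes, 20 probe sets and 10 genes passed. These counts were 10 and 6 with the lowest 50% left out, 38 and 16 with array weights, 8 and 2 with the 3' minus 5' gap, and 48 and 19 with the medium spiny neuron mean as a covariate. They were 50 probe sets and 14 genes without water animals 17, 19 and 20, and 17 and 5 without water animals 12, 17 and 20. At a threshold of 0.1 they were 32 and 12. Leaving out 1 animal gave 14 to 24 probe sets and 7 to 11 genes. Pairing was not examined, since no animal number occurs in both groups. The cause of these changes was not tested. The values carry no measure of background, which limits what can be said of Usp43 and Usp44.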
